A study of Homo sapiens with 12 samples.

Results

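The genes described here are the enzymes that make cholesterol and fatty acids, together with the proteins that switch those enzymes on and off. A list of 39 such genes of the SREBP pathway was taken, 25 on the sterol side and 14 on the fatty acid side, and a gene was read when one of its probes had a detection p under 0.01 on at least 3 of the 12 arrays. By this rule 36 of the 39 genes were read, 24 sterol genes and 12 fatty acid genes, among 11459 genes in all. ACSL5 had 5 probes, none of which passed, and FDFT1 and ACSL3 were not analysed here because the probe annotation used pairs no probe with them. The sterol genes read were 18 enzymes and 6 regulators or carriers, and the fatty acid genes were 10 enzymes of synthesis, elongation and desaturation and 2 acyl-CoA synthetases.

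Total RNA of 2 established breast cancer cell lines, BT-549 and MDA-MB-468, was hybridised to Illumina HT-12 v4 bead arrays. There were 4 groups of 3 arrays each: BT-549 transfected with siPRKCD, an siRNA against protein kinase Cδ (PKCδ), BT-549 transfected with siControl, a control siRNA, MDA-MB-468 with siPRKCD and MDA-MB-468 with siControl. Cells of all 4 groups thus carried an siRNA, and untransfected cells were not analysed here. Insulin was added to the medium of BT-549 only. Line and medium thus cannot be told apart, either at baseline or where the siRNA effect is compared between the lines. PKCδ can support the survival of cancer cells, and the arrays measured whatever cells were left in the cultures. In bulk RNA of this kind, fewer cells of one state and less RNA per cell cannot be told apart.

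SREBPs are transcription factors that are made as membrane proteins of the endoplasmic reticulum. When sterols are scarce, the escort protein SCAP carries them to the Golgi, where proteases release the active part, which enters the nucleus and switches on lipid synthesis genes. When sterols are plentiful, INSIG proteins hold the complex back. SREBP-2, encoded by SREBF2, is known mainly for cholesterol genes and SREBP-1, encoded by SREBF1, mainly for fatty acid genes, and both often act beside NF-Y and Sp1, which bind CCAAT and GC boxes.

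PRKCD, the gene targeted, had log2 signals of 6.89, 6.67 and 7.01 on the BT-549 siPRKCD arrays, against 7.71, 7.73 and 7.76 on the BT-549 siControl arrays, and it was above background on only 1 of the 3 siPRKCD arrays. In MDA-MB-468 it had 7.29, 7.20 and 7.47 with siPRKCD and 9.15, 9.13 and 8.82 with siControl. No array of either siPRKCD group reached a siControl array of its line, and the log2 fold change was −0.87 ± 0.11 in BT-549, against −1.72 ± 0.11 in MDA-MB-468 (SE, n = 3 arrays a group; adjusted p = 5.3e-05 and 6.3e-08). The difference of these effects, BT-549 minus MDA-MB-468, was 0.84 (limma, adjusted p = 0.0032), so the measured fall was smaller in BT-549. With background correction by neqc the BT-549 value was −1.96, against −2.54 for the other line. Their difference was then 0.58 and was not called (adjusted p = 0.3). Here and below, log2 signal is quantile-normalized probe intensity, log2 fold change is siPRKCD minus siControl from a limma fit, ± after a fold change is its standard error, and a gene is called when its p, adjusted over all 11459 genes, is under 0.05. Probes above background numbered 15616 to 16595 on the BT-549 siPRKCD arrays and 16640 to 17263 on the BT-549 siControl arrays, and the groups did not overlap. The part of this gap in the results below was not tested. In MDA-MB-468 the ranges were 16562 to 17724 with siPRKCD and 16036 to 17604 with siControl.

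Nearly as many lipid synthesis genes fell in BT-549 as stayed without a call, while in MDA-MB-468 few were called in either direction. In BT-549, 17 of the 36 genes read were called lower with siPRKCD, none was called higher and 19 were not called. Of all genes tested in BT-549, 14.9% were called lower and 11.6% higher. In MDA-MB-468, 3 of the 36 were called lower, 3 higher and 30 were not called, where 13.7% of all genes were called lower and 12.4% higher. HMGCS1 and TM7SF2 were lower in both lines, as were 5.67% of all genes tested, ACSL1 had a call lower in MDA-MB-468 and none in BT-549, and 15 genes had a call lower in BT-549 and none in MDA-MB-468. A call in one line and none in the other does not show that the effects differed, which was tested separately (below). None went opposite ways with a call in both.

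The fall in BT-549 covered both branches of the pathway. Among the 24 sterol genes, 12 were called lower and 12 were not called, with a median log2 fold change of −0.33 and a range of −1.44 to 0.17. Among the 12 fatty acid genes, 5 were called lower and 7 were not, with a median of −0.31 and a range of −1.34 to 0.28. The median over all genes tested was −0.01. In 20 of the 36 genes every BT-549 siPRKCD array lay below every BT-549 siControl array, which held for 22.0% of all genes tested. The sterol count was 7 without siControl replicate 1 of BT-549 and 6 without siControl replicate 2, against 12 with all arrays. Median centring in place of quantile normalization gave 390 higher and 1398 lower calls over all genes in BT-549, against 1325 and 1705, and 8 sterol and 5 fatty acid genes lower.

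In MDA-MB-468 the sterol genes had 1 call higher and 2 lower, with a median log2 fold change of −0.03 and a range of −0.64 to 0.42. The fatty acid genes had 2 calls higher and 1 lower, with a median of 0.08 and a range of −0.40 to 0.45, and the median over all genes was 0.00. Neither median had a settled sign: without siControl replicate 1 the sterol median was 0.07, and without siControl replicate 3 the fatty acid median was −0.06. The siPRKCD arrays all lay below the siControl arrays in 4 of the 24 sterol genes, against 19.7% of all genes in that line. With the replicate number as a block, which was taken to pair the arrays of this line, 6 sterol genes were called, 3 higher and 3 lower. The 3 added were CYP51A1 (log2 fold change 0.42, adjusted p = 0.0085), ACAT2 (0.42, adjusted p = 0.0024) and SREBF1 (−0.38, adjusted p = 0.01). The share of all genes called with the block in this line is not given here. The added calls are therefore not read as particular to the sterol genes.

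**Figure D1:**
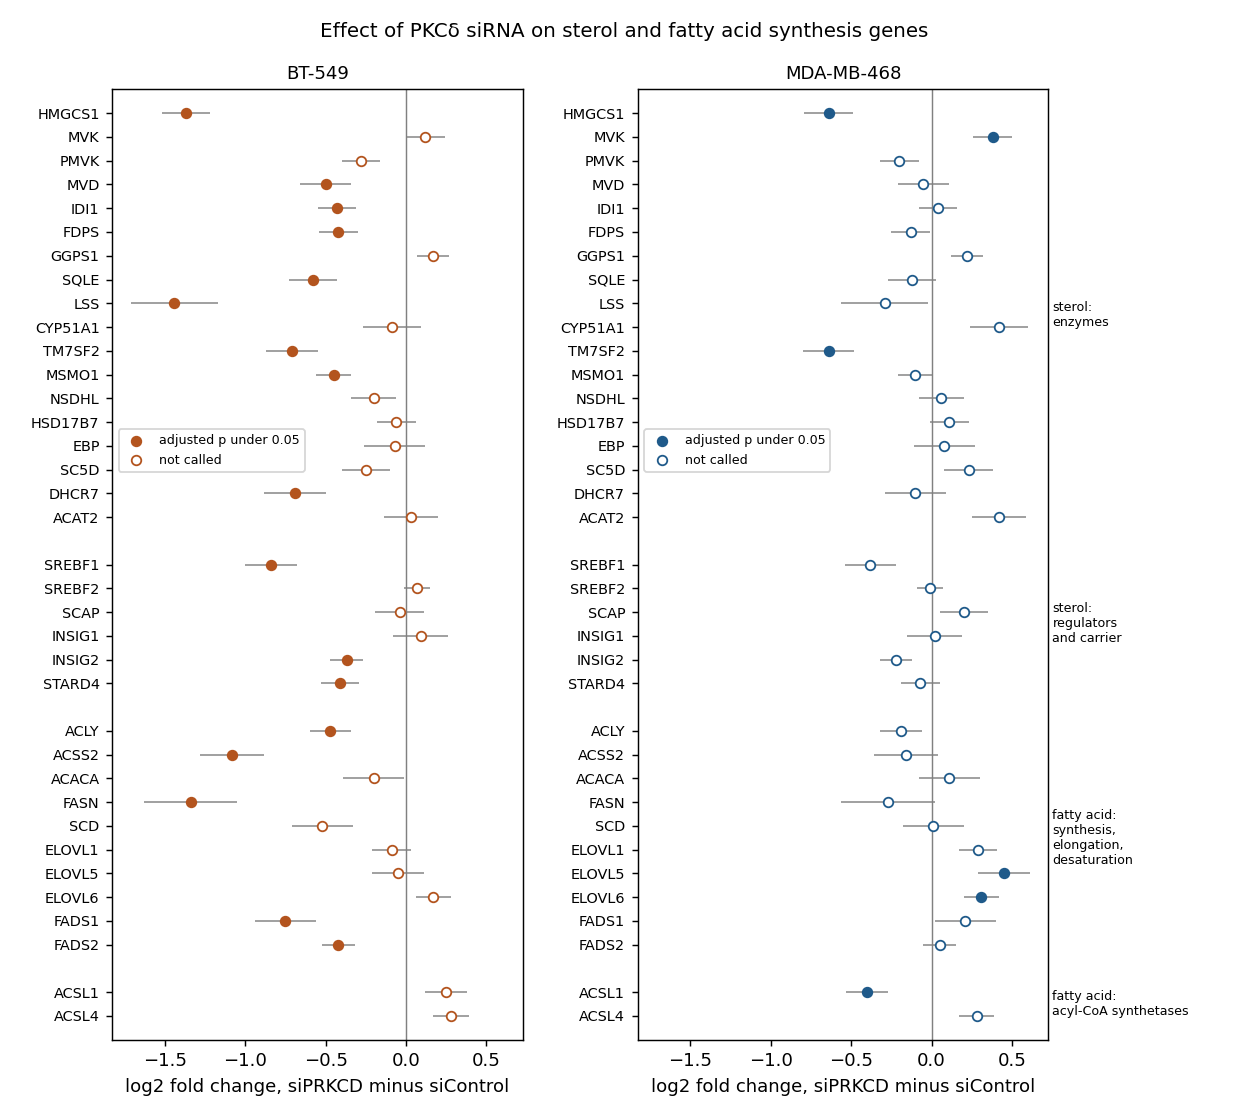
Log2 fold change of each gene read, siPRKCD minus siControl, in BT-549 (left) and MDA-MB-468 (right), with bars of 1 standard error and filled points for an adjusted p under 0.05. In BT-549 the filled points, 17 genes, all lie below 0, from −0.37 for INSIG2 to −1.44 for LSS, and in MDA-MB-468 there are 3 on each side.

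SREBF1 was the regulator that fell most in BT-549. It had log2 signals of 9.29, 9.69 and 9.13 on the BT-549 siPRKCD arrays, against 10.40, 10.45 and 9.77 with siControl. Every siPRKCD array was below every siControl array, and the siControl array of replicate 3 was the lowest of its group. The log2 fold change was −0.84 ± 0.16, that is 0.56-fold (adjusted p = 0.0014), and a second probe of the gene gave −0.51 (adjusted p = 0.0017 over all probes kept). In MDA-MB-468, SREBF1 had 8.35, 8.38 and 8.39 with siPRKCD and 8.65, 8.91 and 8.71 with siControl. The groups did not overlap there either, but the fold change of −0.38 ± 0.16 was not called (adjusted p = 0.10), except with the replicate number as a block (adjusted p = 0.01).

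SREBF2, the partner gene known for sterol control, sat near background, with signals above it on only 5 of the 12 arrays. Its log2 signals ran over 6.91 to 7.08 on the BT-549 siPRKCD arrays and 6.85 to 6.95 on the BT-549 siControl arrays, so little can be read of its level. SCAP had log2 fold changes of −0.04 in BT-549, against 0.20 in MDA-MB-468, and INSIG1 had 0.09 and 0.02, none of them called. INSIG1 is itself a standard target gene of the SREBPs. It had 11.51, 11.15 and 11.54 on the BT-549 siPRKCD arrays, against 11.45, 11.52 and 10.95 with siControl, and the groups overlapped. Without all replicate 3 arrays its fold change in BT-549 was −0.16. A second INSIG1 probe gave −0.29 in BT-549 (adjusted p = 0.064).

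INSIG2, the other retention protein, was lower in BT-549, with 7.90, 8.01 and 7.59 on siPRKCD arrays and 8.21, 8.23 and 8.16 on siControl arrays (−0.37 ± 0.10, adjusted p = 0.015). STARD4, a carrier that moves cholesterol between membranes, had 6.90, 6.97 and 6.98 with siPRKCD, 2 of these not above background, against 7.46, 7.41 and 7.20 with siControl (−0.41 ± 0.12, adjusted p = 0.02). In both genes the groups did not overlap. With neqc, which moves dim probes most, the fold change was −0.56 for INSIG2 and −0.99 for STARD4. Both calls were lost without single BT-549 arrays, INSIG2 without siControl replicate 2 or siPRKCD replicate 3 (adjusted p = 0.055 and 0.076) and STARD4 without siControl replicate 1 or 2 or siPRKCD replicate 1 (adjusted p = 0.062 to 0.087). In MDA-MB-468 INSIG2 had −0.22 with the arms apart and STARD4 had −0.07, neither called (limma, adjusted p = 0.13 and 0.74). Their differences between lines, −0.15 and −0.34, were not called either (adjusted p = 0.6 and 0.24). Of the 6 regulators and carriers, 3 were called lower in BT-549 and none in MDA-MB-468.

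Along the sterol branch, 9 of the 18 enzymes were called lower in BT-549, from HMG-CoA synthase to the last reductase, with a median log2 fold change of −0.35. The largest falls were in LSS and HMGCS1, and TM7SF2 was, with HMGCS1, called lower in both lines. The promoters of these 3 genes and of SREBF1, the sterol genes with the largest falls in BT-549, are printed because SREBPs act through short promoter motifs. Each is the RefSeq sequence of GRCh38.p14 from 250 bases before to 50 after the annotated start, read 5′ to 3′ on the gene's strand, with capitals for the motifs searched on both strands: the sterol regulatory element core TCACNCCAC, the NF-Y box CCAAT and the GC box GGGCGG. No 2 matches overlapped.
HMGCS1 promoter: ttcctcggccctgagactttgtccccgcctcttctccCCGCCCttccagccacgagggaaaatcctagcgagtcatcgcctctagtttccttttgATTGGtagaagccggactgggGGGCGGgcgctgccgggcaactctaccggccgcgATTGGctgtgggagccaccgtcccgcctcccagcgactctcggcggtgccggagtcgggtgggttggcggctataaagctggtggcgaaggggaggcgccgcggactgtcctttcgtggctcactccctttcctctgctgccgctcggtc
LSS promoter: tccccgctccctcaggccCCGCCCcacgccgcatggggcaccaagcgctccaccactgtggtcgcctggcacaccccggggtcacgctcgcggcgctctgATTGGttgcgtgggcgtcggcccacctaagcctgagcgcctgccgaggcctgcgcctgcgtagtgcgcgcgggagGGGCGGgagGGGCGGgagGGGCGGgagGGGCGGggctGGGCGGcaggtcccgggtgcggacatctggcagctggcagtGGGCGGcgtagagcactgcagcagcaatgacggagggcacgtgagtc
TM7SF2 promoter: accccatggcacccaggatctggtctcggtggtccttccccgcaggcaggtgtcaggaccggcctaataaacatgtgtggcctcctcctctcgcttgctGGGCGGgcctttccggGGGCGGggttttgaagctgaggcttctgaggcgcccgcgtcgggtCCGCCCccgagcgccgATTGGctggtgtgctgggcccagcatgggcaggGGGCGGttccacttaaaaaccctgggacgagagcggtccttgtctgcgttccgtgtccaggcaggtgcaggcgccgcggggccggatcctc
SREBF1 promoter: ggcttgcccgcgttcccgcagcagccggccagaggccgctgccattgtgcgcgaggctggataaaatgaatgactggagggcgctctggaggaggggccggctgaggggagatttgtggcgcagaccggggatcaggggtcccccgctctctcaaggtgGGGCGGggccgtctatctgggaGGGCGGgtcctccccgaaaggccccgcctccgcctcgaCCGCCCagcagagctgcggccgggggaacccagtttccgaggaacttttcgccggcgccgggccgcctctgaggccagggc
The HMGCS1 promoter lies at chr5:43313363-43313662 on the minus strand and holds 2 NF-Y boxes and 2 GC boxes. It is the one of 2 annotated starts with more matches. LSS, at chr21:46228725-46229024 on the minus strand, holds 1 NF-Y box and 7 GC boxes, and TM7SF2, at chr11:65111622-65111921 on the plus strand, holds 1 NF-Y box and 4 GC boxes. SREBF1, at chr17:17836937-17837236 on the minus strand, holds 3 GC boxes and no NF-Y box. None of the 4 windows holds the sterol regulatory element core in these letters.

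Over the genes read that have a promoter entry, the NF-Y box was in 29 of 50 promoters (58%) and the GC box in 41 (82%), against 34.6% and 45% of all 35116 promoters of the same length. All these promoters belong to 27305 genes, many of them not read on these arrays. The share over the promoters of all genes read was not computed. The sterol regulatory element core was in 2 of the 50, those of SREBF2 and ACSL1, and in 1.13% of all promoters. Among promoters of genes called lower in BT-549, 14 of 23 (60.9%) held an NF-Y box and 21 (91.3%) a GC box, and among those of the genes read and not called lower, 15 of 27 (55.6%) and 20 (74.1%) did. Counted by gene, 12 of 15 genes called lower and 13 of 18 of the rest had an NF-Y box, and 15 of 15 and 16 of 18 had a GC box. These are matches of letters, and neither a difference between these groups nor binding was tested.

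HMGCS1, whose enzyme makes HMG-CoA at the entry of the mevalonate pathway and whose promoter is shown above, fell in both lines. It had log2 signals of 9.69, 9.50 and 9.53 on the BT-549 siPRKCD arrays, against 11.16, 11.02 and 10.66 with siControl. In MDA-MB-468 it had 12.23, 11.94 and 11.81 with siPRKCD and 12.88, 12.70 and 12.32 with siControl. The groups did not overlap in either line. The fold change was −1.37 ± 0.15 in BT-549, that is 0.387-fold (adjusted p = 1.3e-05), and −0.64 ± 0.15 in MDA-MB-468, that is 0.642-fold (adjusted p = 0.0054). With median centring the MDA-MB-468 fall was not called (adjusted p = 0.055).

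LSS encodes lanosterol synthase, which closes the linear squalene epoxide into the ring system of sterols. It had 8.45, 8.35 and 8.48 on the BT-549 siPRKCD arrays, against 10.24, 9.90 and 9.47 with siControl. In MDA-MB-468 it had 10.07, 9.93 and 9.06 with siPRKCD and 10.28, 10.33 and 9.32 with siControl. Replicate 3 was the lowest array in both MDA-MB-468 groups and in the BT-549 siControl group, and only in BT-549 were the arms apart. The fold change was −1.44 ± 0.27 in BT-549, that is 0.368-fold (adjusted p = 9.2e-04), and −0.29 ± 0.27 in MDA-MB-468 (adjusted p = 0.48), where it was 0.02 without siPRKCD replicate 3.

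TM7SF2, a sterol reductase that acts after lanosterol, had 7.18, 7.23 and 7.35 on the BT-549 siPRKCD arrays and 8.21, 8.04 and 7.65 with siControl. In MDA-MB-468 it had 8.30, 8.20 and 7.86 with siPRKCD and 8.79, 9.02 and 8.47 with siControl. In each line all siPRKCD arrays were the lower ones. The fold change was −0.71 ± 0.16 in BT-549, that is 0.609-fold (adjusted p = 0.0031), and −0.64 ± 0.16 in MDA-MB-468, that is 0.642-fold (adjusted p = 0.0067). The difference of these effects, BT-549 minus MDA-MB-468, was −0.08 with a 95% interval of −0.55 to 0.39. With neqc the fold changes were −1.26 in BT-549 and −0.85 in the other line, and their difference was −0.42 (adjusted p = 0.5).

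Of the other enzymes of the mevalonate part, which builds isoprenoid units, MVD, IDI1 and FDPS were called lower in BT-549. MVD, which makes isopentenyl diphosphate, had 7.01, 7.26 and 6.83 on BT-549 siPRKCD arrays, against 7.47, 7.50 and 7.61 with siControl (−0.50 ± 0.16, adjusted p = 0.029), and 1 of the 3 siPRKCD arrays was not above background. With neqc its fold change was −1.14. IDI1, the isomerase of that unit, had 9.41, 9.81 and 9.74 against 10.09, 10.24 and 9.93 in BT-549 (siPRKCD against siControl, −0.43 ± 0.12, adjusted p = 0.012). FDPS, which joins the units into farnesyl diphosphate, had 9.24, 9.17 and 9.49 against 9.90, 9.77 and 9.50 (−0.42 ± 0.12, adjusted p = 0.017). In all 3 genes the BT-549 arms were apart, for FDPS by 0.01 only. These calls were lost without single BT-549 arrays: IDI1 without siPRKCD replicate 1 or siControl replicate 2 (adjusted p = 0.065 and 0.067), FDPS without replicate 1 or 2 of either arm (0.056 to 0.091) and MVD without any 1 array but siPRKCD replicate 2 (0.059 to 0.12). FDPS and HSD17B7 have close copies elsewhere in the genome, and binding of those to the probes was not tested. In MDA-MB-468 their fold changes were −0.05, 0.04 and −0.13, none called.

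MVK, mevalonate kinase, was the sterol gene called higher in MDA-MB-468. It had 7.85, 7.78 and 7.61 with siPRKCD and 7.54, 7.49 and 7.08 with siControl (0.38 ± 0.12, adjusted p = 0.032), and without siControl replicate 3, its lowest array, the fold change was 0.23 (adjusted p = 0.15). The call was also lost without siPRKCD replicate 1 or 2 (adjusted p = 0.11 and 0.092), and with neqc the value was 0.71. In BT-549 the change was 0.12 and was not called. PMVK, the next kinase, had −0.28 in BT-549, against −0.20 in MDA-MB-468, and GGPS1, which makes geranylgeranyl diphosphate for protein prenylation, had 0.17 and 0.22, with no call among these. MVK, GGPS1 and ACAT2 were the sterol enzymes with positive values in both lines.

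Between squalene and cholesterol, SQLE, MSMO1 and DHCR7 were called lower in BT-549. SQLE, squalene epoxidase, had 11.02, 10.97 and 11.26 on the BT-549 siPRKCD arrays, against 11.61, 11.81 and 11.56 with siControl (−0.58 ± 0.15, adjusted p = 0.011), and a second probe gave −0.71 (adjusted p = 0.0051). MSMO1, which removes methyl groups from the sterol ring, had 10.04, 10.39 and 10.15 against 10.84, 10.54 and 10.54 (−0.45 ± 0.11, adjusted p = 0.0076), and while a second probe gave −0.55 (adjusted p = 0.0098), another, dimmer one gave −0.12 (adjusted p = 0.5). DHCR7, the reductase that yields cholesterol itself, had 9.00, 9.20 and 9.12 against 9.88, 9.75 and 9.76 (−0.69 ± 0.19, adjusted p = 0.014), and a second probe gave −0.49, which was not called (adjusted p = 0.11).

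For these 3 genes, siPRKCD and siControl arrays of BT-549 were apart. The calls were lost for MSMO1 and DHCR7 without siControl replicate 1 of BT-549 (adjusted p = 0.051 and 0.054) and for SQLE without siControl replicate 2 (0.055). In MDA-MB-468 the fold changes were −0.12 for SQLE, −0.10 for MSMO1 and −0.10 for DHCR7, none called. The remaining enzymes of the ring were not called in either line: CYP51A1, the lanosterol demethylase, had −0.09 in BT-549, against 0.42 in MDA-MB-468, SC5D, a sterol desaturase, had −0.25 and 0.23, and NSDHL, HSD17B7 and EBP lay between −0.20 and 0.11 in both lines. ACAT2, which supplies acetoacetyl-CoA to HMGCS1, had 0.03 in BT-549, against 0.42 in MDA-MB-468, where a second probe gave 0.10. The calls in BT-549 thus did not cover the whole of the ring-forming part.

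**Figure D2:**
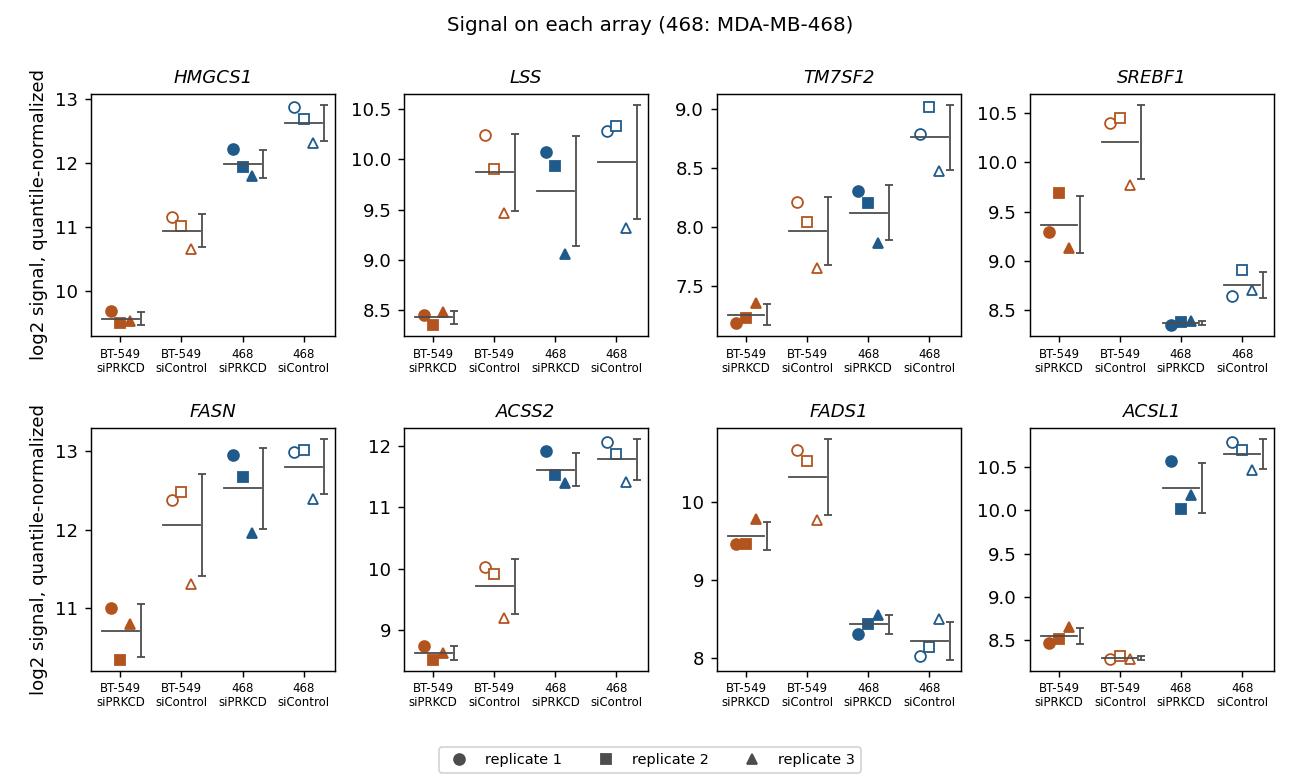
Log2 signal of 8 genes on every array, in the order BT-549 siPRKCD, BT-549 siControl, MDA-MB-468 siPRKCD and MDA-MB-468 siControl, with filled symbols for siPRKCD, open symbols for siControl, a circle, square or triangle for replicate 1, 2 or 3, a line at the mean and a bar of 1 SD. HMGCS1 and TM7SF2 are lower with siPRKCD in both lines, while LSS, FASN and ACSS2 are lower in BT-549 and overlap in MDA-MB-468.

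On the fatty acid side, the 5 genes called lower in BT-549 were enzymes of acetyl-CoA supply, of the synthase step and of desaturation. ACSS2, which makes acetyl-CoA from acetate, had 8.74, 8.52 and 8.62 on the BT-549 siPRKCD arrays, against 10.02, 9.91 and 9.20 with siControl. The arms were apart, with replicate 3 the lowest siControl array, and the fold change was −1.08 ± 0.20, that is 0.472-fold (adjusted p = 8.3e-04). A second probe gave −1.14 (adjusted p = 0.0019), and another, much dimmer one gave 0.02 (adjusted p = 0.93). In MDA-MB-468 ACSS2 had 11.92, 11.52 and 11.40 with siPRKCD and 12.06, 11.86 and 11.42 with siControl, which overlapped (−0.16, adjusted p = 0.61).

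FASN, the fatty acid synthase that builds palmitate, had 11.01, 10.35 and 10.80 on the BT-549 siPRKCD arrays, against 12.37, 12.48 and 11.31 with siControl. In MDA-MB-468 it had 12.94, 12.67 and 11.95 with siPRKCD and 12.98, 13.01 and 12.39 with siControl. Only the BT-549 arms were apart, and the siControl array of replicate 3 was the lowest of its group in both lines. The fold change was −1.34 ± 0.29 in BT-549, that is 0.396-fold (adjusted p = 0.0028), and −0.27 ± 0.29 in MDA-MB-468 (adjusted p = 0.56).

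ACLY, which makes acetyl-CoA from citrate, had 11.11, 10.81 and 11.12 on the BT-549 siPRKCD arrays, against 11.56, 11.53 and 11.38 with siControl (−0.47 ± 0.13, adjusted p = 0.013). The call was lost without siControl replicate 1 or siPRKCD replicate 2 of BT-549 (adjusted p = 0.055 and 0.065). ACACA, the carboxylase that commits acetyl-CoA to fatty acids, had −0.20 in BT-549 and was not called, although a second, dimmer probe gave −0.36 (adjusted p = 0.048). SCD, which puts the first double bond into stearate, had 13.56, 13.42 and 13.73 with siPRKCD and 14.08, 14.22 and 13.95 with siControl in BT-549. Its arms were apart, but the fold change of −0.52 had an adjusted p of 0.05, not under the threshold.

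FADS1 and FADS2, desaturases of polyunsaturated fatty acids, were both called lower in BT-549. FADS1 had 9.46, 9.46 and 9.77 on the BT-549 siPRKCD arrays, against 10.66, 10.52 and 9.76 with siControl (−0.75 ± 0.19, 0.595-fold, adjusted p = 0.0073). Its groups met in replicate 3, where the 2 arms had nearly the same signal, and without all replicate 3 arrays the fold change was −1.13. FADS2 had 7.17, 6.88 and 6.93 with siPRKCD, 1 of the 3 above background, against 7.51, 7.41 and 7.32 with siControl (−0.42 ± 0.10, adjusted p = 0.0044, or −1.01 with neqc), and it was above background on no MDA-MB-468 array.

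None of the elongases was called lower. ELOVL5 was called higher in MDA-MB-468, with 11.36, 11.56 and 11.49 with siPRKCD and 11.15, 10.93 and 10.98 with siControl (0.45 ± 0.16, adjusted p = 0.045), and ELOVL6 was too, with 9.17, 9.19 and 9.25 against 8.95, 8.92 and 8.78 (0.31 ± 0.11, adjusted p = 0.047). In both, all siPRKCD arrays lay above all siControl arrays, yet both calls were lost without any 1 of the 6 MDA-MB-468 arrays (adjusted p = 0.054 to 0.14). In BT-549 their fold changes were −0.05 and 0.17, and ELOVL1 had −0.09 in BT-549, against 0.29 in MDA-MB-468, none called, although a second ELOVL6 probe gave 0.44 in BT-549 (adjusted p = 0.012).

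ACSL1 and ACSL4 encode acyl-CoA synthetases, which activate fatty acids for use rather than make them. ACSL1 had 10.57, 10.01 and 10.17 with siPRKCD and 10.79, 10.69 and 10.46 with siControl in MDA-MB-468, and the arms overlapped (−0.40 ± 0.13, 0.758-fold, adjusted p = 0.029). The call was lost without siControl replicate 1 or 2 or siPRKCD replicate 2 or 3 (adjusted p = 0.079 to 0.15). In BT-549 it had 8.47, 8.52 and 8.65 with siPRKCD and 8.28, 8.32 and 8.29 with siControl, where siPRKCD was the higher arm, by 0.25, without a call (adjusted p = 0.16). ACSL4 had a fold change of 0.28 in each line, not called in either.

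Whether the effect of siPRKCD differed between the lines was tested in the same fit, with the MDA-MB-468 fold change subtracted from the BT-549 one. The difference was below 0 in 22 of 24 sterol genes and 11 of 12 fatty acid genes, and in 5917 of all 11459 genes, with medians of −0.32 for sterol genes, −0.43 for fatty acid genes and −0.01 for all genes. It was below 0 in all 18 sterol enzymes and in all 10 enzymes of fatty acid synthesis, elongation and desaturation. Single genes passed the test seldom: 1 of 24 sterol genes was called lower, and 3 fatty acid genes were called lower and 1 higher, where 5.62% of all genes were called lower and 5.15% higher. With median centring, 32.9% of the genes called were higher, against 47.8%.

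The sterol gene was HMGCS1, with a difference of −0.73 ± 0.21 (adjusted p = 0.039), and the fatty acid genes called lower were FADS1 at −0.96 ± 0.26 (adjusted p = 0.028), ACSS2 at −0.92 ± 0.28 (adjusted p = 0.047) and FADS2 at −0.47 ± 0.14 (adjusted p = 0.039). The FADS2 value rests on MDA-MB-468 signals that were not above background. ACSL1 was called the other way, at 0.65 ± 0.18 (adjusted p = 0.029). For the other 2 large falls in BT-549 the difference was not called: it was −1.15 for LSS, with a 95% interval of −1.95 to −0.35 (adjusted p = 0.065), and −1.07 for FASN, with an interval of −1.93 to −0.20 (adjusted p = 0.11). The replicate number was also fitted as a block in both lines, although it was taken to pair arrays in MDA-MB-468 only. With this block 9 sterol genes were called, against 1 in the main fit, LSS (adjusted p = 4e-04) and DHCR7 (0.0065) among them. FASN (0.017) and SCD (0.026) were called lower too. The block raised the calls over all genes as well (below). As it was not taken to pair the arrays of BT-549, nothing further is read from these calls.

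**Figure D3:**
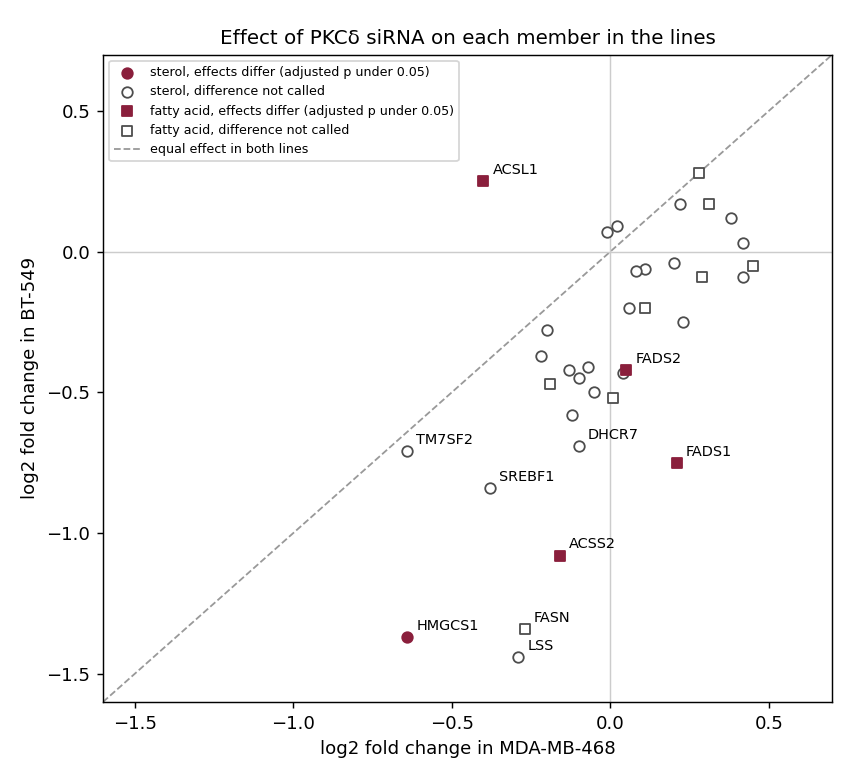
Log2 fold change of each gene read, siPRKCD minus siControl, in MDA-MB-468 (horizontal) and BT-549 (vertical), with a dashed line where both are equal and red points where the difference between lines had an adjusted p under 0.05. Of the 36 points, 33 lie below the dashed line.

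In the siControl arrays the lines differed in 31 of the 36 genes. In BT-549 siControl compared with MDA-MB-468 siControl arrays, 14 of 24 sterol genes were called lower and 5 higher, with a median log2 difference of −0.53, while 9 of 12 fatty acid genes were called higher and 3 lower, with a median of 0.68. Of all genes tested, 29.7% were called lower and 32.6% higher, and their median was 0.02. So in BT-549 most sterol enzymes, 13 of 18, were lower, and most fatty acid genes were higher.

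Among the sterol genes, HMGCS1 averaged 10.94 ± 0.26 in BT-549, against 12.63 ± 0.28 in MDA-MB-468 (SD, n = 3 arrays each; difference −1.69, 0.31-fold, adjusted p = 5.9e-08). MVD averaged 7.53 ± 0.08 in BT-549, against 9.14 ± 0.35 in MDA-MB-468 (−1.61, adjusted p = 1.8e-07), and SC5D 8.79 ± 0.08 and 10.38 ± 0.32 in the same order (−1.58, adjusted p = 1.4e-07). INSIG2 averaged 8.20 ± 0.04 in BT-549, against 9.76 ± 0.05 in MDA-MB-468 (−1.55, adjusted p = 1.7e-09). These 4 genes, along with MSMO1 (−1.21) and DHCR7 (−1.08), were at least 1 lower in BT-549 on the log2 scale.

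Array by array, MVD had 9.39, 9.28 and 8.73 on the MDA-MB-468 siControl arrays, all above its BT-549 arrays given before. SC5D had 8.71, 8.86 and 8.81 on the BT-549 siControl arrays, against 10.68, 10.40 and 10.05 on those of MDA-MB-468. In the MDA-MB-468 siControl arrays, INSIG2 had 9.80, 9.70 and 9.77. In all 3 genes the lines were far apart relative to the spread of the replicates. MSMO1 had 11.85, 11.75 and 11.96 and DHCR7 had 11.20, 11.10 and 10.35 on the MDA-MB-468 siControl arrays. These too lay above every BT-549 siControl array. The dimmest MSMO1 probe gave a difference of 0.04 between the lines in place of −1.21.

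SREBF1 stood on the other side. It averaged 10.21 ± 0.38 in BT-549, against 8.76 ± 0.14 in MDA-MB-468 (1.45, 2.74-fold, adjusted p = 9.7e-07), and its BT-549 siPRKCD arrays, at 9.13 to 9.69, still lay above every MDA-MB-468 array. SQLE (0.67), INSIG1 (0.59), SCAP (0.43) and PMVK (0.34) were the other sterol genes called higher in BT-549. LSS, at −0.11 with adjusted p = 0.74, was among the 5 not called, and the gene with the largest fall in BT-549 thus had siControl means of 9.87 ± 0.38 in BT-549, against 9.98 ± 0.57 in MDA-MB-468.

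Of the fatty acid genes, FADS1 had the largest positive difference, averaging 10.31 ± 0.48 in BT-549, against 8.21 ± 0.25 in MDA-MB-468 (2.10, 4.29-fold, adjusted p = 5.2e-08). FADS2 was above background on all BT-549 siControl arrays and on none of MDA-MB-468, so only a bound can be given, at least 1.42-fold higher in BT-549. ACSL4 (1.56), ACACA (1.15), SCD (1.11) and ELOVL6 (1.04) were also higher in BT-549 by at least 1. ACSL4 had 10.76, 10.70 and 10.68 on the BT-549 siControl arrays, against 9.17, 9.04 and 9.27 on those of MDA-MB-468. ACACA had 10.76, 10.60 and 10.41 in BT-549, against 9.75, 9.64 and 8.93 in MDA-MB-468. ELOVL6 had 9.96, 10.14 and 9.70 in BT-549, against the 8.95, 8.92 and 8.78 given before for MDA-MB-468. In these 3 genes, and in SCD with 13.18, 13.20 and 12.53 in MDA-MB-468, every BT-549 siControl array was the higher one. Lower in BT-549 were ACSL1, at 8.29 ± 0.02 in BT-549, against 10.65 ± 0.17 in MDA-MB-468 (−2.35, 0.196-fold, adjusted p = 9.6e-11), ACSS2 at 9.71 ± 0.44 and 11.78 ± 0.33 (−2.07, adjusted p = 1.3e-07, with −0.30 from its dimmest kept probe) and FASN (−0.74, adjusted p = 0.036). The FASN difference was −0.37 without siControl replicate 3 of BT-549, and was then not called (adjusted p = 0.23).

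**Figure D4:**
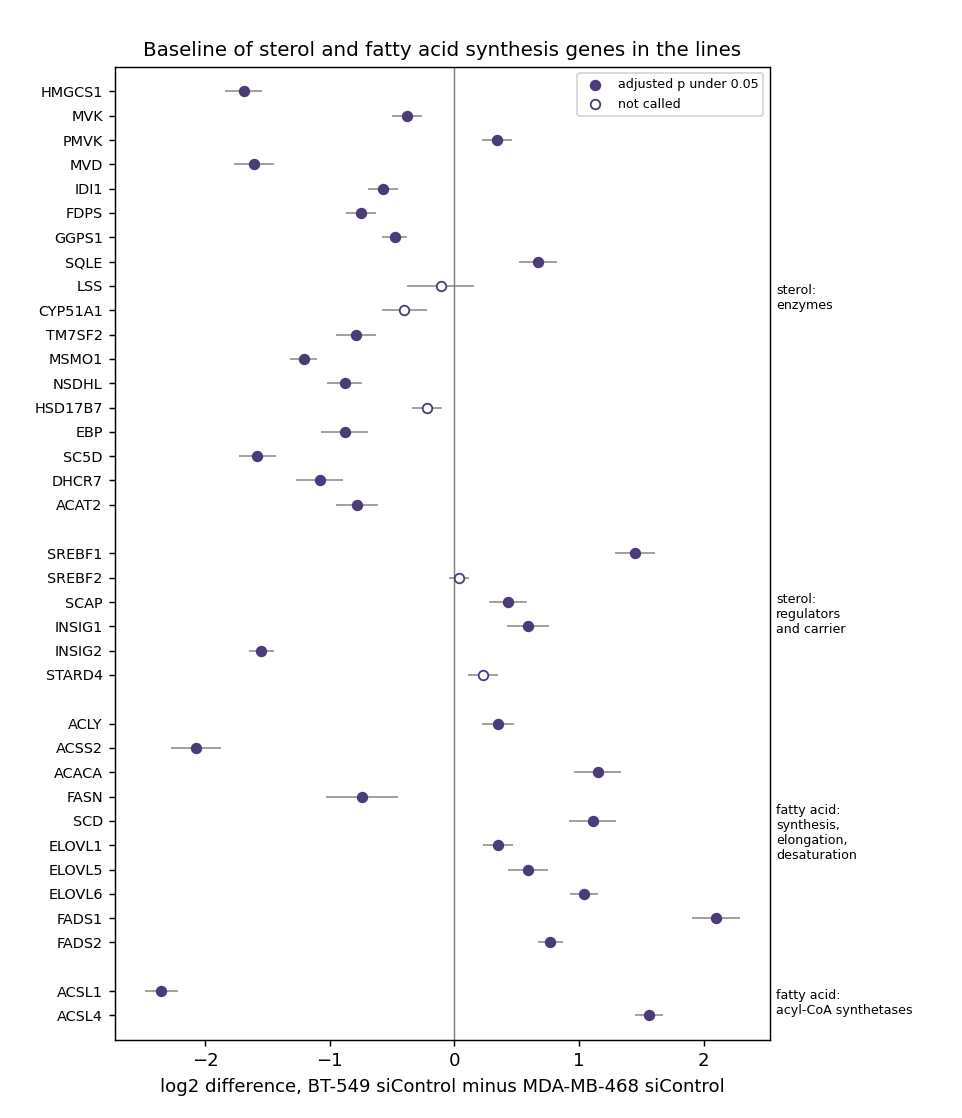
Log2 difference of each gene read between the siControl arrays of BT-549 and MDA-MB-468, BT-549 minus MDA-MB-468, with bars of 1 standard error and filled points for an adjusted p under 0.05. Sterol enzymes lie mostly below 0, down to −1.69 for HMGCS1, and the fatty acid genes mostly above, from 2.10 for FADS1 with ACSL1 at −2.35 as the lowest.

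The acyl-CoA synthetases differed in opposite directions at baseline, as ACSL4 averaged 10.71 ± 0.04 in BT-549, against 9.16 ± 0.11 in MDA-MB-468 (adjusted p = 3.4e-09). Markers of cell character separated the lines as well: of 8 epithelial markers read, 7 were lower in BT-549 and none higher, and of 6 mesenchymal markers read, all 6 were higher in BT-549. The summed linear signal of the epithelial markers was 957 to 1045 on the BT-549 siControl arrays and 20904 to 23643 on the MDA-MB-468 siControl arrays. On no BT-549 siControl array were 7 of the 8 above background, and 4 of the 6 mesenchymal markers were above background on no MDA-MB-468 array. Blood, endothelial and adipose markers (PTPRC, CD3E, PECAM1, ADIPOQ and PLIN1) were not detected, and ALB, a liver marker, was higher with siPRKCD in BT-549 (0.60, adjusted p = 0.0019).

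These markers also moved with siPRKCD. In BT-549, 4 of the 6 mesenchymal markers were called lower and their summed signal was 29706 to 33124 with siPRKCD and 44468 to 44929 with siControl. In MDA-MB-468, 5 of the 8 epithelial markers were called lower, with sums of 16780 to 20372 with siPRKCD and 20904 to 23643 with siControl. Each line thus had less signal of its own marker set with siPRKCD, and the part of this in the results was not tested.

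Genes around the pathway were taken as 6 further lists, whose counts stand against 14.9% lower and 11.6% higher of all genes in BT-549, and 13.7% and 12.4% in MDA-MB-468. The lists were short, no list was tested, and nothing particular to them is read from the counts. Of 12 genes of SREBP processing and its partners, 1 was called higher and 3 lower in BT-549, and 2 higher and 1 lower in MDA-MB-468. MBTPS1, the Golgi protease that makes the first cut in SREBPs, was lower in BT-549 (−0.42, adjusted p = 0.0058) and had −0.08 in MDA-MB-468 (adjusted p = 0.64). ERLIN2, which helps to hold the SREBP complex in the endoplasmic reticulum, was lower in BT-549 (−0.47, adjusted p = 0.0013), and also in MDA-MB-468 (−0.64, adjusted p = 1.1e-04). NFYC, a subunit of NF-Y, rose in both, by 0.41 ± 0.10 in BT-549 (adjusted p = 0.0053) and 1.15 ± 0.10 in MDA-MB-468 (adjusted p = 7.4e-07), and the effects differed (−0.74, adjusted p = 0.0029). SAR1A, a coat protein of vesicles that leave the endoplasmic reticulum, was lower in BT-549 (−0.28, adjusted p = 0.049), and NFYA, another NF-Y subunit, was higher in MDA-MB-468 (0.28, adjusted p = 0.032).

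Of 11 other SREBP targets read, 1 was called higher and 3 lower in BT-549, and 2 higher and 2 lower in MDA-MB-468. LPCAT3, which remodels phospholipids with polyunsaturated acyl chains, had 7.95, 7.88 and 8.23 on the BT-549 siPRKCD arrays, against 9.54, 9.37 and 9.15 with siControl. In MDA-MB-468 it had 7.76, 7.82 and 7.82 with siPRKCD and 8.65, 8.64 and 8.82 with siControl. It fell in both lines with no overlap, with a fold change of −1.34 ± 0.11 in BT-549 (adjusted p = 1.9e-06) and −0.90 in MDA-MB-468 (adjusted p = 3.8e-05). TMEM97, a sterol-regulated membrane protein, rose in both, by 0.44 in BT-549 (adjusted p = 0.013) and 0.61 in MDA-MB-468 (adjusted p = 0.0014). PCYT2, of phosphatidylethanolamine synthesis, and LPIN1, a phosphatidate phosphatase, were lower in BT-549 (−0.42, adjusted p = 0.029, and −0.57, adjusted p = 0.049). In MDA-MB-468, ME1, which supplies NADPH, was lower (−0.54, adjusted p = 0.0092), and GPAM, which starts glycerolipid synthesis, was higher (0.40, adjusted p = 0.01).

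Of 9 genes of lipoprotein uptake, lysosomal release and esterification, in BT-549 2 were called higher and 4 lower, and 3 lower in MDA-MB-468. VLDLR, a receptor for lipoproteins, had 10.02, 10.02 and 10.08 on the BT-549 siPRKCD arrays, against 9.06, 9.31 and 9.14 with siControl, and in MDA-MB-468 8.39, 8.22 and 8.07 with siPRKCD against 8.82, 8.49 and 8.68 with siControl. It was thus higher in BT-549 (0.86, adjusted p = 3.9e-05) and lower in MDA-MB-468 (−0.44, adjusted p = 0.0075), and the effects differed by 1.30 (adjusted p = 7e-05). LIPA, the lysosomal lipase that frees cholesterol from its esters, was lower in BT-549 (−0.66, adjusted p = 5.4e-04) and had 0.04 in MDA-MB-468, and the effects differed by −0.70 (adjusted p = 0.011). SCARB1, a receptor for high-density lipoprotein, was lower in BT-549 (−0.49, adjusted p = 0.0012), and NPC1, which exports cholesterol from lysosomes, was higher there (0.61, adjusted p = 0.009). NPC2, its soluble partner, was lower in both lines, at −0.36 in BT-549 (adjusted p = 0.022) and −0.40 in MDA-MB-468 (adjusted p = 0.013). SOAT1, which esterifies cholesterol for storage, was lower in both, at −0.44 in BT-549 (adjusted p = 0.011) and −0.56 in MDA-MB-468 (adjusted p = 0.0022).

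Among 6 genes of LXR signalling and efflux, in BT-549 2 were lower, against 1 in MDA-MB-468, LPCAT3 among them in both, since it stands on this list too. APOE, a carrier of effluxed cholesterol, had 8.10, 8.27 and 8.11 on the BT-549 siPRKCD arrays, against 9.41, 8.87 and 8.46 with siControl (−0.75, adjusted p = 0.003), and was above background on no MDA-MB-468 array. Of 11 genes of triglyceride and droplet storage, 1 was higher and 2 lower in BT-549, and 1 higher and 2 lower in MDA-MB-468, where HILPDA, a droplet protein, had −0.74 (adjusted p = 5.8e-04). ABHD5, an activator of droplet lipolysis, was higher in BT-549 (0.30, adjusted p = 0.024) and lower in MDA-MB-468 (−0.29, adjusted p = 0.029), and the effects differed by 0.59 (adjusted p = 0.0084). PLIN3, a droplet coat protein, was lower in BT-549 (−0.40, adjusted p = 0.017), and LPIN1 and GPAM stand on this list too. Of 14 genes of fatty acid oxidation, 3 were lower in each line and none higher. ACADM, which oxidises medium chains, was lower in BT-549 (−0.64, adjusted p = 0.0064) and MDA-MB-468 (−0.56, adjusted p = 0.014), and ACADVL, which oxidises long chains, was lower in both too (−0.35, adjusted p = 0.0091, and −0.37, adjusted p = 0.0069). ECHS1, a hydratase of the cycle, was lower in BT-549 (−0.46, adjusted p = 0.0098), and CPT2, of the carnitine shuttle, in MDA-MB-468 (−0.42, adjusted p = 0.012).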

How the data were processed

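The authors hybridised total RNA, purified on columns and biotin-labelled, from 12 samples to Illumina Human HT-12 v4 arrays. They deposited, for each array, the bead signal intensity of 47323 probes without normalization (lowest value 66.2) and a detection p-value for each. A normalized intensity table was deposited too, and it differed from the quantile-normalized values computed here by at most 0.0083 on the log2 scale. It served as an alternative. The number of arrays, 3 a group, limits the precision.

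Intensities were quantile-normalized between arrays and log2-transformed in R 4.3.3 with limma 3.58.1, with no background correction. Probes with a detection p under 0.01 on at least 3 of 12 arrays were kept, 19439 in all. Genes were named from the platform annotation, which gives 1 symbol to 30113 probes, several to 8 and none to 17202, and where a gene had several kept probes the brightest on average stood for it, which left 11459 genes. One limma model with a mean for each group gave siPRKCD minus siControl in each line, BT-549 minus MDA-MB-468 siControl, and the difference of the effects, with Benjamini-Hochberg adjustment over 11459 genes (8 residual and 7.64 prior degrees of freedom). With 3 arrays against 3, an exact two-sided permutation test of 1 gene cannot go below 0.10. The fit was also run on simulated data with independent errors and effects in BT-549 only. As same-numbered arrays shared nothing there, that run does not bear on pairing.

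The labels number the replicates 1 to 3, and the study describes its array fold changes as means of separate experiments. How the cultures were separated is not given in the sources used here, so p-values reflect only how these samples vary. No 2 arrays were identical, and arrays of a group correlated at 0.987 to 0.997. Deviations of same-numbered siPRKCD and siControl arrays from their group means correlated at 0.37, 0.29 and 0.49 in MDA-MB-468, which was taken as pairing, and at 0.28, 0.01 and 0.05 in BT-549, which was not. Arrays of unlike number were not correlated for reference. The main fit used no block in either line.

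The genes and the lists were chosen with earlier results of these data known. Values per array are given for listed genes called in a line with a log2 fold change of at least 0.8 in size, the largest changes of each role and baseline differences of at least 1. From each surrounding list, up to 4 called genes a line are named by smallest adjusted p. Some smaller changes, such as INSIG1, and arrays of LPCAT3, VLDLR and APOE are shown beyond that. Alternatives were median centring, background correction from detection p-values (neqc), 2 other filters, other rules for several probes, fits on 6 arrays, a trended robust variance, the replicate block and leaving out each array. Leaving out all replicate 3 arrays was chosen after seeing the data. Promoters are RefSeq sequences of GRCh38.p14.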

Additional observations from a re-analysis of the deposited data

Results flagged for a closer look

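The effect of siPRKCD on log2 signal differed between the lines for 5 of the 36 genes read, by the limma test of the difference (BT-549 minus MDA-MB-468, adjusted over all genes). The difference was −0.73 for HMGCS1, −0.92 for ACSS2, −0.96 for FADS1 and −0.47 for FADS2, and it was 0.65 for ACSL1. FADS2 was not above background on any MDA-MB-468 array. None of the 5 calls held under every alternative tried, and without single arrays or under other settings the adjusted p reached 0.12 for HMGCS1, 0.12 for ACSS2, 0.078 for FADS1, 0.12 for FADS2 and 0.42 for ACSL1. Groups of 3 arrays are too small for a test of single arrays that stand apart.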

How the results depend on the processing

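No called fold change reversed its direction, while several uncalled values and the 2 list medians in MDA-MB-468 changed sign. The fatty acid calls in MDA-MB-468, 2 higher and 1 lower, became 0 higher and 1 lower in some fits without 1 array. These were the fits without siPRKCD replicate 1 or siControl replicate 3 of MDA-MB-468, or siPRKCD replicate 3 of BT-549. No fatty acid gene was called in MDA-MB-468 without its siControl replicate 1 or 2 or its siPRKCD replicate 2 or 3. Median centring gave 1462 genes called in MDA-MB-468, 1788 in BT-549 and 510 for the difference between lines, and it left 1 sterol and 0 fatty acid genes called in MDA-MB-468 and 0 of each for the difference. The differences called lower in the main fit stayed about as large, at −0.85 for HMGCS1, −1.04 for ACSS2, −1.08 for FADS1 and −0.51 for FADS2. That of ACSL1 was 0.49, against 0.65 in the main fit (limma with median centring, adjusted p = 0.42). The median of all genes moved by at most 0.09. Keeping probes detected on all 12 arrays gave 616 genes for the difference, out of a smaller set than the 11459 genes of the main fit. For the sterol genes the difference was called in 0 under neqc, with no filter and with all kept probes adjusted together, and in 2 with the mean of the probes. For the fatty acid genes it was called in 2 under neqc and 2 with no filter, and in MDA-MB-468 0 were called under neqc and 1 each with no filter and with all kept probes. Without all replicate 3 arrays, 3 sterol genes were called for the difference and 1 fatty acid gene in MDA-MB-468. Counts over all genes under neqc, with no filter, with all kept probes or their mean, and without replicate 3 are not given here. Shifts particular to the pathway are thus not read from the member counts in those settings. The causes of these shifts were not tested.

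With the replicate block, 1862 genes were called for the difference, against 1234 in the main fit. Of the 1862, 9 were sterol genes, and 6 sterol genes were called in MDA-MB-468. In BT-549, where the numbers were not taken to pair the arrays, the block added PMVK (adjusted p = 0.02) and SCD (0.0015). Leaving out 1 array at a time gave 2163 to 3176 genes in MDA-MB-468, 2090 to 3230 in BT-549, 6566 to 7284 at baseline and 862 to 1202 for the difference. Over the same fits, sterol genes called numbered 2 to 5 in MDA-MB-468, 6 to 12 in BT-549, 17 to 21 at baseline and 0 to 3 for the difference, and fatty acid genes 0 to 4, 4 to 6, 10 to 12 and 0 to 4. In BT-549, 8 of the 17 falls held under every alternative that measured them (HMGCS1, LSS, TM7SF2, SREBF1, ACSS2, FASN, FADS1 and FADS2), in MDA-MB-468 1 of 6 (TM7SF2), and at baseline 24 of 31. The difference was below 0 in 20 to 23 of 24 sterol genes and 10 to 11 of 12 fatty acid genes without single arrays. Background correction by neqc enlarged the BT-549 falls of STARD4, MVD, FADS2, TM7SF2 and INSIG2 by over 1.5 times. Genes near background, such as SREBF2, STARD4, MVD and FADS2, limit what can be read of their fold change.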
